A study of Mus musculus with 12 samples.

Results

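Tuft cells are rare chemosensory cells of the intestinal epithelium, and 8 genes that mark them, *Dclk1*, *Trpm5*, *Il25*, *Pou2f3*, *Gfi1b*, *Alox5ap*, *Ptgs1* and *Rgs13*, were followed here among the 34245 genes of a raw count table from mouse small intestine. The 8 are established markers of the cell type and were chosen by name, with earlier results of these data known. All 8 had a single row in the table and passed the filter on low counts in each comparison. In the mouse these cells arise from the same crypt stem cells as the rest of the epithelium, and they depend on the transcription factor POU2F3. They taste the gut contents through G-protein-coupled receptors, a phospholipase C cascade and the cation channel TRPM5. On sensing succinate from parasites and protists they secrete IL-25, acetylcholine and lipid mediators, IL-25 drives innate lymphoid cells to make IL-13, and IL-13 in turn directs the epithelium towards more tuft and goblet cells.

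RNA came from 2 populations sorted from the small intestine of male C57BL/6 mice that carry the Lgr5-EGFP-IRES-CreERT2 knock-in, in which EGFP and an inducible Cre stand under control of the *Lgr5* locus. Intestinal stem cells (ISC) were the DAPI-negative cells of crypt suspensions with the highest GFP, sorted without antibody. Adult enterocytes (AE) were DAPI-negative villus cells with high Epcam that stained for neither CD45 nor CD31. This gate held no marker particular to enterocytes, and whether it kept all tuft cells was not tested. The younger mice were middle-aged adults and the aged mice were in old age, no treatment is named for them, and each of the 4 groups (young ISC, aged ISC, young AE, aged AE) held 3 libraries. They are named here by the codes of their columns, Y1, Y2 and Y3 for young and O1, O3 and O5 for aged, since the titles of 8 of the 12 samples name another group than their code does. No source says which mouse a library came from, so p-values measure the spread between these libraries. The paper lists 3 ages for each cohort of sequenced mice, so ISC and AE libraries may come from the same mice. Tests of AE against ISC did not pair them unless stated.

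The libraries held 11893817 to 26796461 counts, except for young AE Y3 with 110794420. *Lgr5* and *Vil1* separated the sorts in each library. *Lgr5*, the receptor that marks crypt base stem cells, stood at 79.6 to 146 CPM in ISC (counts scaled to a common library size with edgeR's TMM factors) and at 0.551 to 4.71 in AE. *Vil1*, which encodes villin of the brush border, stood at 417 to 752 CPM in ISC and at 4268 to 6158 in AE. The TMM factors were 1.26 to 1.36 in ISC and 0.721 to 0.823 in AE, which raises AE values relative to ISC values. All CPM and fold changes of AE against ISC below rest on this scaling. *Ptprc*, which encodes CD45, did not follow the gates, since it stood at 0.578 to 3.26 CPM in ISC, sorted without CD45 staining, and at 5.33 to 15.0 in AE, gated against it. Tuft cells were not sorted for in either gate, and how much of the RNA of each gene came from them and not from other sorted cells was not measured. Fewer tuft cells also cannot be told apart from less RNA of these genes per cell.

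The start regions of the members are shown for reference. No link between them and the shared rise and fall of the genes across libraries, described below, was tested. RefSeq promoters on GRCm38.p6 were at hand for 5 of the 8 members, with 2 starts for *Dclk1*. The 250 bases before the start of *Trpm5*, *Ptgs1*, *Rgs13* and the upstream start of *Dclk1* are printed 5′ to 3′ on the strand of the gene, with matches to the motifs searched in capitals. They lie at chr7:143094643-143094892 on the minus strand, chr2:36230176-36230425 on the plus strand, chr1:144177373-144177622 on the minus strand and chr3:55242114-55242363 on the plus strand, in this order.
*Trpm5*: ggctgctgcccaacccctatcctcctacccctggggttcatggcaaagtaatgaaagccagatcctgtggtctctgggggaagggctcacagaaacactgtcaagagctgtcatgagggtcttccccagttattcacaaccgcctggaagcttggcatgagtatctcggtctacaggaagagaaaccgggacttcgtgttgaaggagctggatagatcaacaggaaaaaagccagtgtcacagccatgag
*Ptgs1*: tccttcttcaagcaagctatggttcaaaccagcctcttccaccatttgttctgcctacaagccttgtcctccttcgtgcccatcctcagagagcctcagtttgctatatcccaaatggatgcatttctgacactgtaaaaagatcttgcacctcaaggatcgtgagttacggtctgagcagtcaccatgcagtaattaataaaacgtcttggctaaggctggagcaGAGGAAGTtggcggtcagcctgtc
*Rgs13*: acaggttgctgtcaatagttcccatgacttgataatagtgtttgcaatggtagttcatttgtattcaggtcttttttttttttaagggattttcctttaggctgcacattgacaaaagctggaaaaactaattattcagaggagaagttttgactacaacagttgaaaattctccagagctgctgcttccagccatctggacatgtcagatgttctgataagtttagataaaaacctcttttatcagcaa
*Dclk1*: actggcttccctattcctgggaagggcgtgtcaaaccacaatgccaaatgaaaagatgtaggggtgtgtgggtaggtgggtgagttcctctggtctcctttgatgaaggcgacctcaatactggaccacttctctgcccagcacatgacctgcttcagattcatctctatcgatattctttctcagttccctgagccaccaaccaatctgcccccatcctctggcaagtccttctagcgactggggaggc
Both strands were searched for the octamer ATGCAAAT that POU2-class factors bind, and it was in none of the 6 member windows and in 1.6% of the 32851 RefSeq windows of the same length. The letters AAATCAC, the core that GFI factors bind, were likewise in none of the 6 and in 2.75% of all windows. The PU box GAGGAAGT of SPI-class ETS factors was in 1 of the 6, in *Ptgs1*, where it ended 17 bases before the start, and in 2.44% of all windows. This box was chosen after the genes most alike to the members and the sequences had been seen. The *Rgs13* window held 36% G and C and no CpG, against a median of 52.4% G and C over all windows, while the *Trpm5* and *Ptgs1* windows held 52.8% and 48%.

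Length-scaled levels place the members over a wide range. Per kilobase of merged exons, *Rgs13*, a GTPase-activating protein for G protein alpha subunits, was highest in all 4 groups, at 19.7 ± 10.6 CPM per kb in young ISC (SD, n = 3) and at 26.5 ± 10.9 in young AE. *Alox5ap* and *Trpm5* followed, at 14.8 ± 6.90 and 11.5 ± 3.47 CPM per kb in young ISC. The ranges of those 3 neighbours overlapped in that group, and no test between genes was run. *Dclk1*, *Pou2f3* and *Ptgs1* came next with group means of 2.08 to 6.54 CPM per kb, and *Gfi1b* stood at 1.01 to 1.98. *Il25* was lowest in all 4 groups, at 0.270 ± 0.133 CPM per kb in young ISC and at 1.23 ± 0.931 in young AE.

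Of the 2 transcription factors, *Pou2f3* (chromosome 9, 43123939 to 43210369, minus strand, GRCm38), the master regulator of the lineage, had its widest range within young AE. Its CPM was 11.6, 14.8 and 11.1 in young ISC, 12.7, 15.2 and 7.61 in aged ISC, 19.4, 13.2 and 5.60 in young AE and 9.42, 7.61 and 8.06 in aged AE, in the order of the codes. The groups overlapped in each comparison. *Gfi1b* (chromosome 2, 28609450 to 28621982, minus strand), a zinc finger repressor shared by tuft cells and the megakaryocyte and erythroid lineages, was low but above the detection limit of 3 counts in each library. It had 16, 41 and 58 counts in young ISC, 97, 39 and 16 in aged ISC, 60, 48 and 168 in young AE and 32, 23 and 14 in aged AE, or 0.712 to 3.26 CPM in ISC and 1.53 to 4.91 in AE. No pair of groups was apart.

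*Trpm5* (chromosome 7, 143069153 to 143094642, minus strand), the calcium-activated channel at the end of the taste cascade, had the highest CPM of the members in each library. Its CPM was 56.4, 65.9 and 98.7 in young ISC, 70.3, 78.8 and 33.0 in aged ISC, 241, 116 and 73.7 in young AE and 96.5, 82.9 and 87.0 in aged AE. In aged mice all 3 AE libraries were above all 3 ISC libraries, by a narrow margin. Without the TMM factors this order does not hold, as aged ISC O1 had 2506 counts of 26796461 and aged AE O1 1015 of 13815802. *Dclk1* (chromosome 3, 55242364 to 55539068, plus strand), a microtubule-associated kinase used widely to stain tuft cells, followed the same order of libraries for the most part. Its CPM was 40.0, 61.7 and 87.7 in young ISC, 55.0, 58.6 and 25.8 in aged ISC, 126, 112 and 51.2 in young AE and 57.3, 61.0 and 65.0 in aged AE, so that AE and ISC overlapped at both ages. *Rgs13* (chromosome 1, 144138654 to 144177372, minus strand) ranged from 13.8 to 48.6 CPM in young ISC, 11.9 to 41.3 in aged ISC, 23.1 to 55.0 in young AE and 28.9 to 34.1 in aged AE.

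*Il25* (chromosome 14, 54932695 to 54935837, plus strand), the cytokine by which tuft cells alert innate lymphoid cells, was detected in all 12 libraries but with few reads. It had 2, 7 and 6 counts in young ISC, 13, 3 and 5 in aged ISC, 30, 9 and 61 in young AE and 10 in each of the 3 aged AE libraries. On the CPM scale these were 0.128, 0.397 and 0.337 in young ISC, 0.365, 0.162 and 0.222 in aged ISC, 2.45, 0.744 and 0.731 in young AE and 0.951, 0.896 and 1.09 in aged AE. All 6 AE libraries stood above all 6 ISC libraries, as they did for 24.4% of all genes (49.6% without overlap in either direction), and *Il25* was the 1 member of which this was true on the CPM scale. The young ISC Y1 and aged ISC O3 values were at or under 3 counts, the limit of detection used here.

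Of the 2 eicosanoid genes, *Ptgs1* (chromosome 2, 36230426 to 36252272, plus strand), which encodes the cyclooxygenase COX-1 that starts prostaglandin synthesis, was higher in AE in 5 of 6 libraries than in any ISC library. Its CPM was 5.80, 6.41 and 16.3 in young ISC, 8.03, 12.3 and 3.87 in aged ISC, 38.5, 23.6 and 14.0 in young AE and 24.1, 24.8 and 22.3 in aged AE. The only overlap was between young ISC Y3, the highest ISC library, and young AE Y3, the lowest AE library. *Alox5ap* (chromosome 5, 149264767 to 149288153, plus strand), which encodes the protein FLAP that hands arachidonic acid to 5-lipoxygenase for leukotriene synthesis, showed no such separation. Its CPM was 10.8, 22.0 and 30.4 in young ISC, 24.0, 30.2 and 5.34 in aged ISC, 44.3, 25.2 and 13.4 in young AE and 18.8, 17.1 and 16.6 in aged AE. The ISC libraries alone spanned 5.69-fold from lowest to highest, the widest ISC range of the 8.

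**Figure D1:**
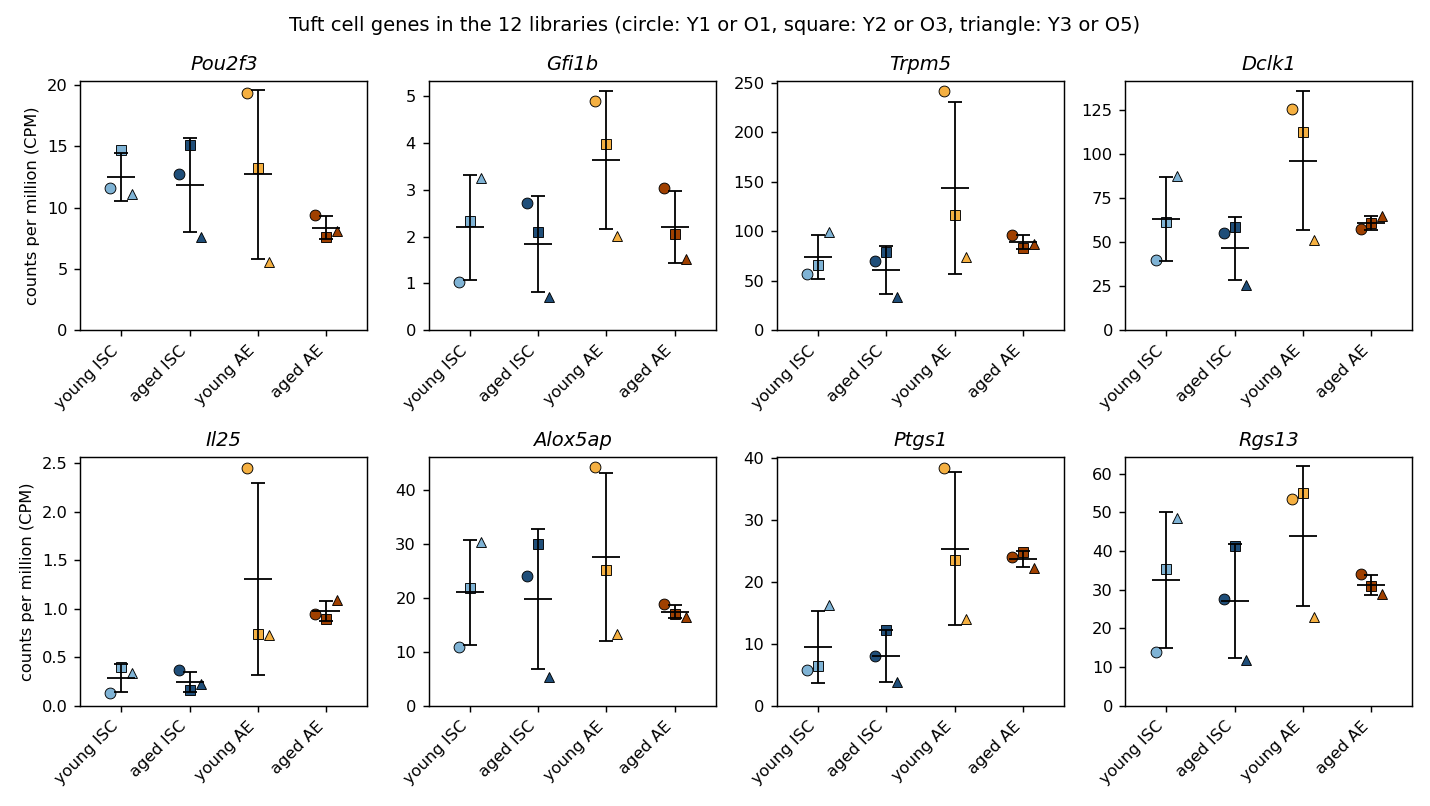
CPM of the 8 tuft cell genes (y axis, linear from 0, own scale per panel) in each of the 12 libraries by group (x axis), with points for libraries and bars for the mean ± SD of 3 libraries. *Il25* and *Ptgs1* stood higher in AE than in ISC apart from 1 overlapping pair of libraries for *Ptgs1*, young AE had the widest spread for most genes, and aged AE libraries lay close together.

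None of the 8 genes was called between aged and young mice in ISC or in AE (edgeR's quasi-likelihood test on all genes, Benjamini-Hochberg adjusted p, here FDR, under 0.05). Over all genes tested the share called was 0% in ISC and 0% in AE, with 5.04% and 4.79% at an unadjusted p under 0.05, and no member was under that in either cell type. Ranges of aged and young libraries overlapped for all 8 in both, while they did not for 8.84% of genes in ISC and 10.9% in AE. DESeq2 called no member either, and called 58 and 18 genes of all tested. The fitted log2 fold changes, aged over young, ran from -0.44 ± 0.37 (SE) for *Dclk1* to -0.07 ± 0.26 for *Pou2f3* in ISC, each with FDR = 1.00. In AE they ran from -0.67 ± 0.38 for *Trpm5* (FDR = 0.844) to -0.06 ± 0.32 for *Ptgs1* (FDR = 0.981).

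All 8 fitted values were below 0 in both cell types, against 47.8% of all genes in ISC and 54.7% in AE. Since the 8 genes went up and down together from library to library, these signs are not 8 separate observations. The median of the 8 was -0.23 in ISC and -0.56 in AE, against 0.01 and -0.04 for all genes. In ISC the median became 0.09 without aged ISC O5, the library lowest in all members but *Il25*, and 0.07 without young ISC Y3. In AE it became -0.10 without young AE Y1, the library highest in 7 of the 8 genes, and -0.94 without young AE Y3, the deepest library. Without young AE Y3, 6 of the 8 were under an unadjusted p of 0.05, beside 2211 of 14848 genes tested, and the lowest edgeR FDR was 0.150 for *Dclk1*. A difference of the age effect between AE and ISC was called for no member (edgeR FDR = 1.00 for each, against 0.00575% of all genes called) and none was under an unadjusted p of 0.05 (3.88% of genes). The 8 values, 7 of them below 0 against 58.9% of genes, ran from -0.55 ± 0.84 (SE) for *Alox5ap* to 0.17 ± 0.68 for *Ptgs1*.

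Between the sorts, *Il25* and *Ptgs1* stood higher in AE. *Il25* rose by 1.98 ± 0.72 on the log2 scale in young AE over young ISC (edgeR FDR = 0.0437) and by 1.76 ± 0.54 in aged AE over aged ISC (FDR = 0.0147). *Ptgs1* rose by 1.49 ± 0.34 in aged mice (edgeR FDR = 0.00328). In young mice its log2 fold change was 1.40 ± 0.51 (edgeR FDR = 0.0502), just outside the threshold. No difference of the age effect between the sorts was called for either gene.

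The other 6 members were not called between AE and ISC at either age. This made 1 of 8 called in young mice against 55.6% of all genes tested, and 2 of 8 in aged mice against 64.9%. The calls were all higher in AE, where 28.9% of genes in young mice and 30.6% in aged mice were called higher and 26.7% and 34.2% lower. At an unadjusted p under 0.05 there were 2 members at each age, *Il25* and *Ptgs1*, against 61.1% and 68.0% of genes. Fitted values were below 0 for 1 member in young mice and 2 in aged mice, against 45.9% and 53.3% of genes. Ranges of AE and ISC libraries did not overlap for 1 of 8 members in young mice (*Il25*) against 62.9% of genes, and for 3 of 8 in aged mice (*Trpm5*, *Il25*, *Ptgs1*) against 69.9%. *Pou2f3* was at 0.00 ± 0.40 in young mice (edgeR FDR = 0.999) and at -0.57 ± 0.27 in aged mice (FDR = 0.0866). *Trpm5* was at 0.96 ± 0.44 in young mice (edgeR FDR = 0.105) and at 0.47 ± 0.28 in aged mice (FDR = 0.157). The *Dclk1*, *Gfi1b*, *Alox5ap* and *Rgs13* values lay between -0.25 ± 0.55 and 0.64 ± 0.50.

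The calls in young mice turned on single libraries. *Il25* was called in 2 of the 6 fits that left out 1 young library, with FDR up to 0.134, and in all 6 of the corresponding fits in aged mice. Without young AE Y3, 4 members were called in young mice, *Dclk1*, *Trpm5*, *Il25* and *Ptgs1*, with *Trpm5* at 1.19 and FDR = 0.0119. Without aged ISC O5, *Pou2f3* and *Alox5ap* were called lower in aged AE, at -0.82 (FDR = 0.00701) and -0.71 (FDR = 0.00558), besides *Il25* and *Ptgs1*.

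**Figure D2:**
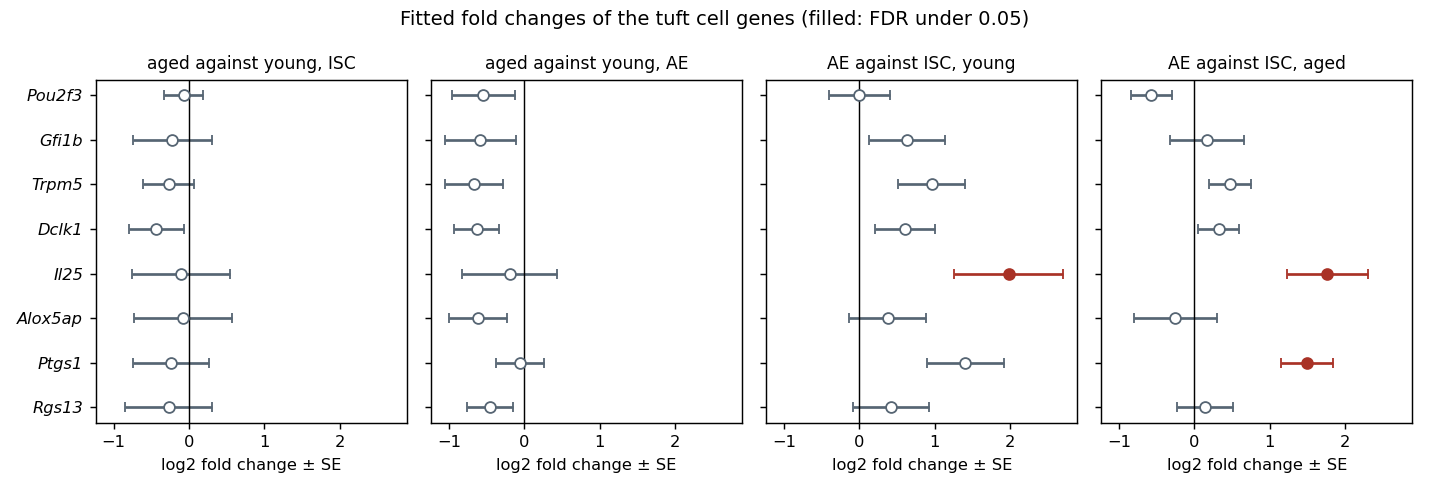
Fitted log2 fold change (x axis) ± SE of the 8 tuft cell genes (y axis) in the 4 comparisons of groups, 3 libraries against 3, with filled red points for FDR under 0.05. *Il25* passed in both comparisons of AE with ISC and *Ptgs1* in aged mice, and no gene passed between aged and young mice.

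The members rose and fell together within groups. With each library set against the mean of its group on the log2(CPM + 0.5) scale, the 28 pairs of members correlated with a median Pearson r of 0.827 over the 12 libraries (range 0.378 to 0.946), as a description of libraries that share depth and scaling. *Dclk1* with *Rgs13* was the closest pair. *Alox5ap* and *Dclk1* followed the mean of the other members most closely, at 0.970 and 0.961, and *Pou2f3* less so at 0.775. *Il25* followed it least, at 0.549, on the few counts given above. The median over pairs was 0.843 in ISC alone, 0.870 in AE alone and 0.720 without aged ISC O5 and young AE Y1.

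The mean of the 7 members above 1 CPM was used as a member score for each library. In ISC, O5 was lowest at 0.89 below its group mean on the log2 scale and Y1 of the young was 0.59 below, while O3 and Y3 were 0.56 and 0.53 above. In AE, Y1 was highest at 0.65 and Y3 lowest at -0.80, while the 3 aged libraries lay between -0.09 and 0.12. The ISC and AE libraries of a code stood on the same side of their group means for Y2, O1 and O5 and on opposite sides for Y1, Y3 and O3, with the largest gaps for Y1 (low in ISC, high in AE) and Y3 (high in ISC, low in AE). Summed over the 8 genes, CPM ran from 88.5 to 296 in ISC and from 184 to 530 in AE.

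**Figure D3:**
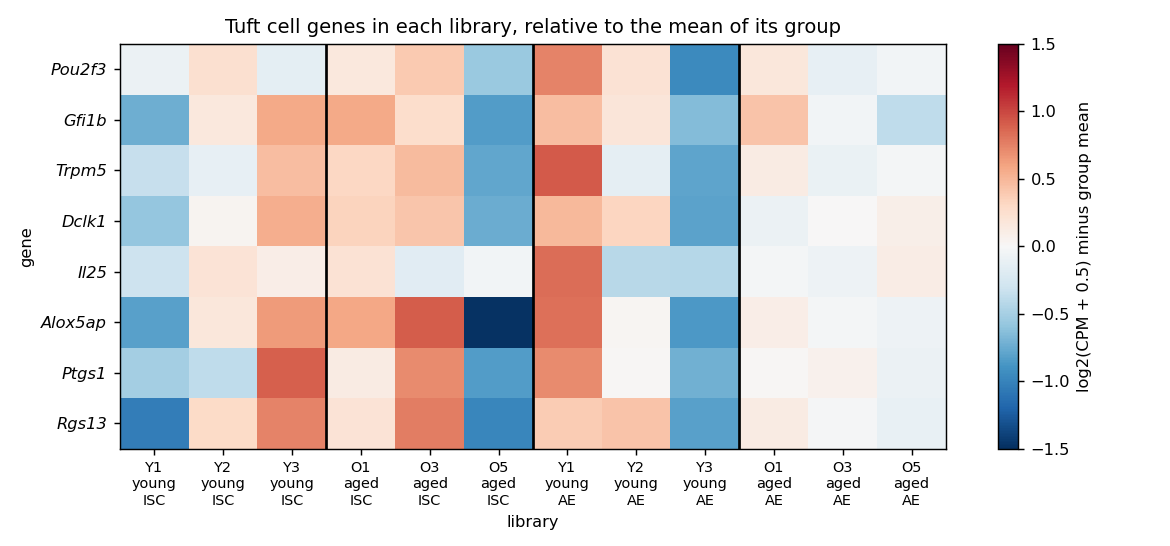
Log2(CPM + 0.5) of each tuft cell gene (y axis) in each library (x axis) minus the mean of the 3 libraries of its group, with red above and blue below that mean. Columns were mostly of 1 colour from top to bottom, with aged ISC O5 and young AE Y3 low, young AE Y1 high and the 3 aged AE libraries near 0.

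The 10 genes most alike to the member score, among 12635 genes with a mean of at least 1 CPM, were *Gprc5c*, *Pik3r5*, *Spib*, *Inpp5d*, *Reep5*, *Sh2d7*, *Avil*, *Smpx*, *Basp1* and *Lrmp*, with r from 0.975 to 0.990 over the 12 libraries. The median over all those genes was 0.0121. *Spib* encodes an ETS transcription factor, *Pik3r5* a regulatory subunit of the G-protein-coupled phosphoinositide 3-kinase, *Inpp5d* the phosphatase SHIP1, and *Avil* advillin, an actin-binding protein of the tuft cell apex. *Alox5ap* by itself was most like *Spib* (r = 0.995), *Sh2d7* and *Lrmp*. *Trpm5* was most like *Adcy5*, *Fut2* and *Ccdc88b*, *Dclk1* like *Basp1*, *Inpp5d* and *Ccdc129*, and *Ptgs1* like *Agt*, *Siglecf* and *Nrgn*. *Rgs13* was most like *Skap2*, *Mmadhc* and *Alox5*, and *Gfi1b* like *Tuba1a*, *Ndufs3* and *Alox5*. The highest r for *Pou2f3* was with *Mcrip1*, *Dnajb11* and *Tgm5*, and that for *Il25*, on its few counts, with *Cplx1*, *Taf9b* and *Chat*. These neighbours of single members are the highest of the 12635 genes over 12 libraries and were not tested. Of 25 genes of 5 further lists of tuft cell and type 2 immunity genes above 1 CPM, 14 were among the 100 most alike and 19 above the 95th percentile of all genes (r = 0.731). The rest were below it, among them *Chat* (0.691), *Plcb2* (0.676), *Il13ra1* (0.602), *Pla2g4a* (0.504) and *Il4ra* (0.109), and the lowest r was -0.308.

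Another secretory lineage moved with the members. The summed CPM of 10 enteroendocrine genes, which encode peptide hormones, granins and factors of hormone-secreting cells, followed the member score with r = 0.864 over 12 libraries. In AE it was 12197 CPM in young Y1 against 3398 to 8295 in the other 5 libraries, and in ISC 265 in young Y1 and 316 in aged O5 against 527 to 932 in the other 4. The stem cell list ran the other way in ISC (r = -0.920 over 6 libraries), at 6524 CPM in aged O5 and 6279 in young Y1 against 4461 to 5419 in the other 4. The enterocyte list ran the other way in AE (r = -0.895 over 6 libraries), lowest in young Y1 at 44869 CPM against 54742 to 72223. The summed CPM of 5 pan-leukocyte genes followed the member score with r = 0.695 (0.578 in ISC and 0.886 in AE, over 6 libraries each). It was at 0.712 to 4.46 CPM in ISC and 7.49 to 20.1 in AE, highest in AE Y1. The sum of the myeloid list described next, mostly *Itgam*, ran against the score (r = -0.745). Its genes with few counts did not all do so. *Csf1r*, *Fcer1g* and *Tyrobp* were highest in AE Y1, at 0.818, 1.72 and 1.06 CPM. *Adgre1* was highest in AE Y3 (0.432 CPM) and *Lyz2* in ISC Y1 (0.702 CPM). The stem cell and enterocyte lists over all 12 libraries, and the other 8 lists described next, had r between -0.236 and 0.397. Within a sort some of these were further from 0, as over 6 libraries the Paneth list had r = -0.875 in ISC, the enteric neuron and glia list -0.846 in ISC and 0.810 in AE, the T cell list 0.733 in AE and the goblet list 0.651 in ISC. The part of these lists in the members' values was not tested.

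Cells of the blood share several tuft cell genes, so their defining markers were read in each group. The mast cell proteases *Cpa3* and *Cma1* and the receptor *Fcer1a* had no count in any library, and neither did *S100a8* and *S100a9* of neutrophils or *Pf4* and *Ppbp* of platelets. The mast cell tryptase gene *Tpsb2* had counts in all 6 AE libraries (0.109 to 1.05 CPM) and none in ISC, and the protease gene *Mcpt1* reached 0.763 CPM in aged AE. *Itga2b*, an integrin subunit of platelets, was at 1.49 to 9.26 CPM in AE and at most 0.561 in ISC. The 7 T cell and intraepithelial lymphocyte genes summed to 2.75 to 8.61 CPM in ISC and 3.86 to 14.8 in AE, and the 6 B and plasma cell genes to 0.109 to 2.33 CPM in all libraries. In some lists a single gene made up most of the sum, and which cells its reads came from was not measured. The mast cell list was carried by *Kit*, and the 7 genes summed to 18.1 to 29.7 CPM in ISC and 8.47 to 15.6 in AE. The 8 myeloid genes summed to 7.75 to 18.1 CPM in ISC and 13.7 to 24.2 in AE, mostly *Itgam*, and the 5 platelet and megakaryocyte genes to 146 to 198 and 165 to 264, mostly *Gp1bb*. The 6 stroma and endothelium genes stayed at or under 4.38 CPM and the 5 enteric neuron and glia genes at or under 3.56. The 5 goblet cell genes summed to 1239 to 1911 CPM in ISC and 19246 to 36005 in AE, and the 6 Paneth cell genes to 545 to 1610 and 52.0 to 227.

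Genes assigned to tuft cells or type 2 immunity were read in 5 further lists, and not all of them followed the member score, as given above. Of the 27 genes tested, 13 (48.1%) were called between the sorts in young mice and 14 (51.9%) in aged mice, against 55.6% and 64.9% of all genes. With the library code as a replicate block 6 were called in young mice and 15 in aged mice. In the taste cascade list, 2 of 5 genes tested were higher in young AE and in aged AE, and 1 was lower in aged AE. Of all genes, 28.9% were called higher in young AE and 30.6% in aged AE, and 34.2% lower in aged AE. *Sucnr1*, the succinate receptor, rose by 2.71 ± 0.63 on the log2 scale in young mice (edgeR FDR = 0.00683) and by 3.19 ± 0.39 in aged mice (FDR = 4.2e-05). Its CPM was 0.191 to 1.52 in the 6 ISC libraries and 3.27 to 9.57 in the 6 AE libraries. *Gnat3*, the G protein alpha subunit gustducin, rose by 3.77 ± 0.93 in young mice (edgeR FDR = 0.00849) and by 2.98 ± 0.55 in aged mice (FDR = 0.000785), from 0 to 0.674 CPM in ISC to 1.47 to 5.48 in AE. *Plcb2*, the phospholipase C that gustducin's partners activate, was at 5.74 to 10.9 CPM in ISC and 5.32 to 31.3 in AE and was not called. *Gng13*, a G protein gamma subunit, was at -2.36 ± 0.88 in aged AE (edgeR FDR = 0.0323) and at -0.70 ± 1.38 in young AE (FDR = 0.684). It had 10 to 38 counts in aged ISC and 1 to 4 in aged AE, at or about the detection limit of 3. The beta subunit gene *Gnb3* had no count in any library, and the taste receptor gene *Tas1r1* was at 0 in 10 of 12.

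Among 4 further eicosanoid genes, *Pla2g4a* and *Ltc4s* were called at both ages and in opposite directions. Over all genes, 55.6% were called in young mice and 64.9% in aged mice. *Pla2g4a*, the cytosolic phospholipase that releases arachidonic acid, fell by 2.81 in young AE (edgeR FDR = 0.00209) and fell by 3.54 in aged AE (FDR = 5.4e-07). It was at 44.6 to 50.4 CPM in the 6 ISC libraries, a narrow range beside that of the members, and at 2.66 to 10.5 in AE. *Ltc4s*, the leukotriene C4 synthase, rose by 0.98 ± 0.36 in young AE (edgeR FDR = 0.0470) and by 1.27 ± 0.40 in aged AE (FDR = 0.0193). *Alox5*, the 5-lipoxygenase that FLAP serves, was at 5.87 to 30.5 CPM in ISC and 17.4 to 47.5 in AE and was not called. *Ltc4s* missed the threshold in young mice with the replicate block (edgeR FDR = 0.0714) and with upper-quartile factors (FDR = 0.0739).

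Of 8 adaptors and kinases of tuft cell signalling, 4 were called higher in AE at each age, against 28.9% of all genes in young mice and 30.6% in aged mice. All 8 fitted values were above 0 at each age, while 45.9% and 53.3% of all genes were below 0. The 8 genes followed the member score with r from 0.811 to 0.981, so these signs are not 8 separate observations. *Matk*, a non-receptor tyrosine kinase, rose by 2.27 ± 0.67 in young mice (edgeR FDR = 0.0283) and by 2.21 ± 0.41 in aged mice (FDR = 0.00163). *Sh2d6*, an SH2 domain adaptor, rose by 1.53 ± 0.50 and 1.33 ± 0.25 (edgeR FDR = 0.0363 and 0.000818). *Rac2*, a small GTPase of blood cells and tuft cells, rose by 1.66 ± 0.49 and 1.54 ± 0.45 (edgeR FDR = 0.0243 and 0.0164). The phosphatase gene *Ptpn6* was called in young mice at 0.96 ± 0.32 (edgeR FDR = 0.0362). With the replicate block none of the 8 was called in young mice, with the lowest edgeR FDR at 0.0846 for *Rac2*, and 4 were called in aged mice. Upper-quartile factors took away the call of *Ptpn6* (edgeR FDR = 0.0593) and left 3 of the 8 called at each age. Without 1 young library, 0 to 7 of the 8 were called, with 0 without ISC Y1 or Y2, 2 without AE Y1 and 7 without AE Y3. Without aged AE O1, 2 were called in aged mice.

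Of 6 other tuft cell markers, 2 were called higher in AE at each age, *Cd300lf* and *Chat*. This is near the share of all genes called higher, 28.9% in young mice and 30.6% in aged mice. *Cd300lf*, a lipid-binding receptor that murine norovirus uses to enter tuft cells, rose by 1.68 ± 0.55 in young mice (edgeR FDR = 0.0359) and by 1.83 ± 0.30 in aged mice (FDR = 0.000343), and its edgeR FDR in young mice was 0.0879 with the replicate block. *Chat*, which makes acetylcholine, rose by 1.59 ± 0.52 and 1.62 ± 0.34 (edgeR FDR = 0.0303 and 0.00191). The most abundant of the list, *Kctd12*, *Avil* and *Lrmp*, were not called, and *Kctd12* was at 61.5 to 135 CPM in ISC and 87.6 to 289 in AE. In young mice none of the 6 was called without ISC Y1, ISC Y2 or AE Y1, 1 was without ISC Y3 and 5 were without AE Y3.

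In the type 2 immunity list, 3 of 4 genes tested, all receptor genes, were called higher in AE at both ages. The share of all genes called higher was 28.9% in young mice and 30.6% in aged mice. *Il13ra1*, a receptor subunit for IL-13, was at 42.9 to 65.6 CPM in the 6 ISC libraries and at 219 to 268 in the 6 AE libraries. It rose by 1.96 ± 0.17 in young mice (edgeR FDR = 0.000105) and by 2.24 ± 0.19 in aged mice (FDR = 2.8e-06). *Il4ra*, the subunit shared by the IL-4 and IL-13 receptors, rose by 1.67 ± 0.23 and 1.60 ± 0.18 (edgeR FDR = 0.000535 and 2e-05). *Il17rb*, the receptor for IL-25, rose by 1.56 ± 0.46 and 1.49 ± 0.23 (edgeR FDR = 0.0216 and 0.000199), and its edgeR FDR in young mice was 0.0619 with the replicate block. *Il4*, *Il5* and *Il13* had no count in any library, and the cytokine gene *Tslp* had at most 16 counts in a library (up to 1.31 CPM) and was not called. None of the 27 genes tested in these 5 lists was called between aged and young mice in either cell type, with a median of -0.18 in ISC and -0.30 in AE. Between the sorts, 12 were called higher and 1 lower in young AE, and 12 higher and 2 lower in aged AE, beside the shares of all genes and the block counts given above. These 5 lists had medians from 0.49 to 1.61 in young mice against 0.15 for all genes, and from 0.07 to 1.55 in aged mice against -0.13, beside 0.62 and 0.24 for the 8 members. These medians moved with single libraries. That of the members ran from 0.34 without AE Y1 to 0.96 without ISC Y3 in young mice and from -0.10 without ISC O5 to 0.55 without ISC O3 in aged mice. That of the taste cascade list ran from -0.38 without AE Y1 to 1.33 without ISC Y2 in young mice and from -0.12 without ISC O5 to 0.32 without ISC O1 in aged mice. Without AE Y1 or ISC O5 the eicosanoid median was 0.087 or 0.031.

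Each gene was also set against the tuft cell genes of its own library, so that the shared rise and fall of the members drops out for genes well above 0.5 CPM. This measure was added after the values had been seen, and it describes libraries with no test. It is the log2(CPM + 0.5) of the gene minus the mean of the members above 1 CPM, the gene itself left out. On it, *Ptgs1* stood at -1.73 to -0.78 in the 6 ISC libraries and at -0.42 to 0.36 in the 6 AE libraries, 1.17 higher on average (0.95 in young mice and 1.39 in aged mice). The ranges of *Ptgs1* did not overlap, and those of the other 7 members did, against 26.0% of all genes not overlapping and 5.10% with all AE libraries higher. *Dclk1*, *Gfi1b* and *Rgs13* differed by 0.01, -0.07 and -0.10 between AE and ISC. *Pou2f3* was at -1.40 to -0.03 in ISC and at -1.63 to -1.33 in AE, lower by 0.93 on average with young ISC Y3 among the AE values. *Il25* was higher by 0.52 on average, and its ranges overlapped. At 0.128 to 0.397 CPM in ISC it was under the added 0.5, which shrinks its difference. For *Il25* the shared rise and fall does not drop out, and its highest ISC value, -3.52, was in aged O5, where the member score was lowest.

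Further tuft cell genes spread over the same scale in both directions. *Sucnr1*, *Gnat3*, *Matk*, *Rac2* and *Cd300lf* were higher relative to the members in all 6 AE libraries than in any ISC library, by 1.95, 1.66, 1.65, 1.24 and 1.21. The limit given for *Il25* holds for *Gnat3* too, at 0 to 0.674 CPM in ISC. *Pla2g4a* was the 1 gene of the lists that was lower in all AE libraries, with a difference of -3.62, against 20.9% of all genes. *Avil* and *Kctd12* differed by -0.01 and 0.06, about as little as *Dclk1*.

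**Figure D4:**
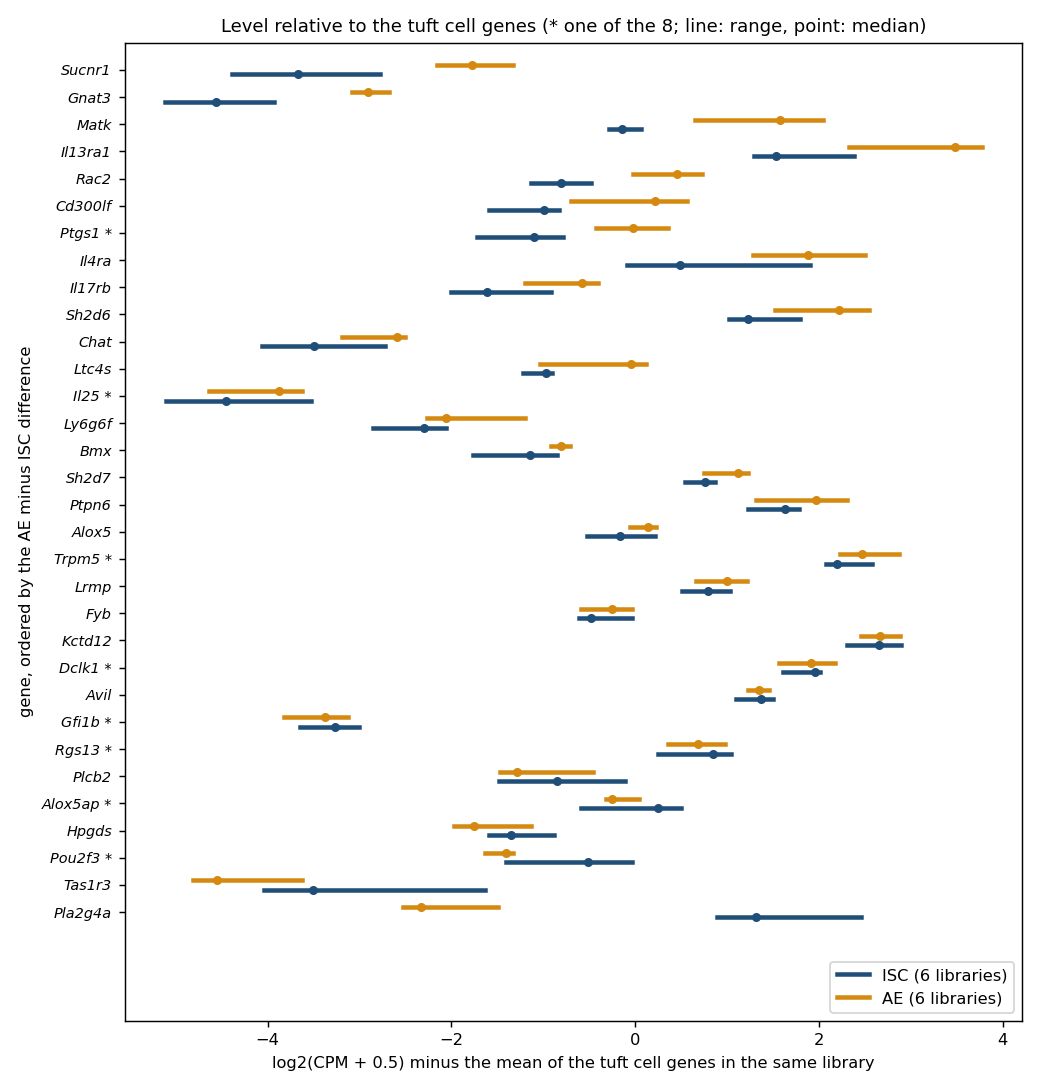
Log2(CPM + 0.5) of each gene minus the mean of the tuft cell genes in the same library (x axis), for the 8 tuft cell genes (asterisks) and genes of the 5 further lists (y axis), with lines for the range and points for the median of 6 ISC (blue) and 6 AE (orange) libraries. *Sucnr1*, *Gnat3* and *Matk* head the genes that stood higher in AE, *Ptgs1* is the member without overlap, *Dclk1* and *Avil* lie at the same place in both sorts, and *Pla2g4a* stands apart at the bottom.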

How the data were processed

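The 12 libraries were made from RNA of 2 sorted populations, ISC and AE, at 2 ages. The authors trimmed reads with Trim Galore 0.4.4, mapped them to GRCm38 with HISAT2 2.1.0 and counted uniquely mapped reads per gene over merged exons in SeqMonk, and the deposited values are these raw counts for 34245 genes. The authors' annotation release is not given in the sources used here, and coordinates of all 8 members equal those of GENCODE M21. A deposited table of the study's own differentially expressed genes, with their log2 values and DESeq2 statistics, was not used. Columns were assigned to groups by the cell type and age in their own names.

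For each comparison, genes below a total of 10 counts were removed, TMM factors were computed, and the rest were tested in R 4.3.3 with edgeR 4.0.16 (robust quasi-likelihood test, Benjamini-Hochberg over all genes, FDR threshold 0.05), using the 6 libraries of the 2 groups, or all 12 for the difference of age effects. CPM use the TMM library sizes, and a pseudocount of 0.5 CPM was added before logarithms. The detection limit was set at 3 counts, for counting error only. A comparison of 3 with 3 libraries cannot give an exact two-sided permutation p under 0.1, so single genes were tested only in the fit across all genes. Replicate libraries of a group differed by more than sampling noise in each pair (chi-square per degree of freedom at least 31.2).

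ISC and AE libraries that share a column code deviated together from their group means over genes above 1 CPM, and all 6 such pairs correlated at 0.231 to 0.450, whereas 12 pairs with unlike codes lay between -0.425 and 0.145. The paper lists 3 ages for each cohort of sequenced mice, a number that 1 mouse per code would match. The codes may therefore pair the libraries, though no source says what they stand for. The main fits did not block on the code and so leave out such a pairing, and blocking on it (replicate block) was 1 of the alternatives. The other alternatives were DESeq2 1.42.0, RLE and upper-quartile factors, no filter, filterByExpr, a fit on all 4 groups and leaving out each library. The edgeR default fit, the correlation in subsets of libraries, the lists without single libraries and the level relative to the members were added after the data were examined. The members and gene lists were chosen with earlier results of these data known. The text names the 8 members, the genes of the 5 tuft cell and type 2 lists that were called or were among the 3 most abundant of their list, and the 10 genes most alike to the member score, except 1 gene of the lists that is counted but not reported here. *Muc2*, split over several rows, was left out of the goblet list, and *Lrmp* stands for the marker also known as Irag2.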

Additional observations from a re-analysis of the deposited data

How the results depend on the processing

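No member was called with age, or for the difference of age effects, under any alternative run. In aged mice *Il25* and *Ptgs1* were called in AE against ISC under each alternative, except that filterByExpr did not test *Il25* (1 member called) and leaving out libraries gave 2 to 4. In young mice, where 1 member was called, the count was 3 with DESeq2 (*Trpm5*, *Il25*, *Ptgs1*), 2 with RLE factors, the edgeR defaults or the fit on all 4 groups (*Il25*, *Ptgs1*), 0 with upper-quartile factors, 1 with filterByExpr (*Ptgs1*) and 0 to 4 without single libraries. Upper-quartile factors moved the median of all genes in young mice from 0.15 to 0.03 and *Il25* to FDR = 0.0594. The replicate block left 1 and 2 members called in young and aged mice and changed no member's call. It moved the genes called for the difference of age effects from 1 to 19, with no member among them. For *Pou2f3* in young mice, whose fitted value was 0.00, the sign turned and AE over ISC became 0.017 with DESeq2, 0.0033 with no filter, 0.048 with filterByExpr and 0.011 with the edgeR defaults, and *Alox5ap* in aged mice turned from -0.25 to 0.0048 with the replicate block. The cause was not tested.

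Leaving out 1 library at a time turned the sign of 20 of the 40 fitted values, none of them called in the full fit. Aged over young in ISC ran from -0.51 to 0.37 for *Alox5ap*, -0.69 to 0.17 for *Gfi1b*, -0.57 to 0.18 for *Il25*, -0.28 to 0.17 for *Pou2f3*, -0.66 to 0.40 for *Ptgs1*, -0.71 to 0.13 for *Rgs13* and -0.51 to 0.030 for *Trpm5*. Aged over young in AE ran from -0.69 to 0.42 for *Il25* and -0.36 to 0.37 for *Ptgs1*. AE over ISC ran in young mice from -0.16 to 0.74 for *Alox5ap* and -0.47 to 0.30 for *Pou2f3*, and in aged mice from -0.71 to 0.16 for *Alox5ap*, -0.22 to 0.62 for *Gfi1b* and -0.22 to 0.58 for *Rgs13*. The difference of age effects ran from -0.55 to 0.031 for *Dclk1*, -0.78 to 0.078 for *Gfi1b*, -0.61 to 0.44 for *Il25*, -0.47 to 0.58 for *Ptgs1*, -0.60 to 0.24 for *Rgs13* and -0.74 to 0.086 for *Trpm5*. The median correlation among members was 0.828 with a pseudocount of 1 CPM and 0.782 without the deepest library. *Il25* values in ISC rest on 2 to 13 counts a library.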
